A study of Mus musculus with 6 samples.

Results

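Estrogen acts on the uterine epithelium through estrogen receptors and raises a set of genes whose products are mostly secreted or placed at the luminal surface. The 9 genes described here belong to this set in the mouse uterus: Ltf, Lcn2, Pigr, Clu, Wfdc2, Slpi, Sprr2f, Greb1 and Padi1. They were taken from the 56884 genes of the count table and chosen by name with their KO and WT values in these lesions already known, so their KO and WT values are a description and carry no test. All 9 passed the filter on low counts, which left 18177 genes.

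Ectopic lesions are pieces of uterine tissue that grow outside the uterus, here in the peritoneal cavity of mice. RNA-seq libraries were made from 3 WT and 3 Dnmt3a KO lesions, 1 library per lesion. WT lesions came from Dnmt3a f/f donors, which carry the floxed allele without Cre, and KO lesions from Dnmt3a f/f:PR-Cre/+ donors, in which Cre is made in cells that express the progesterone receptor. Only KO donors carried Cre at the progesterone receptor locus, so its effects and those of Dnmt3a loss cannot be told apart. Donors and recipients were female mice of 8 weeks of age, and recipients were wild type and carried estrogen pellets, so estrogen was supplied in both groups. The methods name C57BL/6J as the recipient strain and estradiol injections of donors of both genotypes. Donor cells that never expressed the progesterone receptor, and every cell that entered from the recipient, keep an intact Dnmt3a. According to the labels, a suspension of fragments was injected into the abdomen and lesions were collected at 4 weeks, whereas the methods describe 1 fragment sutured to the mesenteric membrane and an earlier collection. The labels give 3 numbered replicates per genotype and the methods 3 donors per genotype, without saying which lesion came from which donor.

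Dnmt3a was measured at 52.7, 43.9 and 51.7 CPM, that is counts scaled to library size, in WT replicates 1, 2 and 3. In KO replicates 1, 2 and 3 it stood at 30.3, 33.5 and 36.2 CPM, below all WT lesions. Counts per gene also take in exons outside the floxed part and so do not measure the deletion itself. Totals ran from 45370342 to 57239184 counts per library. Several libraries stood apart in the genes of other tissues. The 9 skeletal muscle genes summed to 32344 CPM in WT replicate 1 and 35945 CPM in WT replicate 3 and to at most 14.1 CPM in the other lesions. The 6 pancreatic acinar genes summed to 4571 CPM in WT replicate 3 and to at most 0.556 CPM elsewhere, and Reg3b, which intestine and pancreas both make, was at 83.3 CPM there and at most 1.04 CPM elsewhere. Reg3b carried most of the 87.2 CPM that the 10 intestinal genes summed to in that lesion, and Cdx1, Cdx2, Fabp1, Fabp2, Alpi and Apoa4 were at 0 in it. The 4 adipocyte genes were highest in KO replicate 3, at 1632 CPM against 198 to 866 CPM in the others. The 4 urothelial genes ran from 6.32 to 211 CPM, highest in WT replicate 2 and next in KO replicate 2, the 5 mesothelial genes from 41.0 to 289 CPM, and the 5 liver genes stayed at or below 3.14 CPM. WT replicate 2 held by far the highest levels of neutrophil genes, which are given with Ltf, Lcn2 and Slpi below.

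The promoters of 4 genes are shown. These are Ltf and Lcn2, whose source in the lesion is in question, the member Sprr2f, and its relative Sprr2d, which unlike Sprr2f was lower in every KO lesion. Each line gives the 250 bases before the transcription start from RefSeq on GRCm38.p6, 5′ to 3′ on the gene's strand, with the core sequence of the estrogen response element, AGGTCA, which in Sprr2f reads as its reverse complement, and the TATA box TATAAA in capitals.
Ltf, chr9:111019042-111019291, plus strand: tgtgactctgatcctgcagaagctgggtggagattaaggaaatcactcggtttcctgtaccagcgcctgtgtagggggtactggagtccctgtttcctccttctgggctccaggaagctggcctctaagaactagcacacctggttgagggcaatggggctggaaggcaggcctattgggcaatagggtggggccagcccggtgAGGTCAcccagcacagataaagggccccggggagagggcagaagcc
Lcn2, chr2:32387740-32387989, minus strand: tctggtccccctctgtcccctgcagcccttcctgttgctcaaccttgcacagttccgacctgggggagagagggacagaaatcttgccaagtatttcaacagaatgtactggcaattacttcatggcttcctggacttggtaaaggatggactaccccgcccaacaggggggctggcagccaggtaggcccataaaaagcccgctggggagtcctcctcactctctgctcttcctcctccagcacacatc
Sprr2f, chr3:92364937-92365186, plus strand: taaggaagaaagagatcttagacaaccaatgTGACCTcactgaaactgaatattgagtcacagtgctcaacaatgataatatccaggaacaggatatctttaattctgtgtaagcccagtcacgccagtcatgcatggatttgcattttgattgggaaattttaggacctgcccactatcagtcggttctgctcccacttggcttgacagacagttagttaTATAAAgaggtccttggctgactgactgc
Sprr2d, chr3:92338890-92339139, plus strand: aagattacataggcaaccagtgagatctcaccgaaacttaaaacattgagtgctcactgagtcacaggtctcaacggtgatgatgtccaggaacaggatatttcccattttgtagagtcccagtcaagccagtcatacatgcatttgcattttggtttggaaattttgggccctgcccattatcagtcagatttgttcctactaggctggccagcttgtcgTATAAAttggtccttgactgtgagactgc

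The Lcn2 window lies inside the longer GENCODE M21 gene model. A promoter of this length was at hand for 8 of the 9 members, all but Clu. The core sequence AGGTCA was found in 3 of the 8, Ltf, Sprr2f and Greb1, and in 13.8% of 27025 mouse promoters searched in the same way. It began 46 bases before the start in Ltf, 219 bases in Sprr2f and 88 bases in Greb1. The palindromic element GGTCANNNTGACC was found in 0 of the 8 and in 0.0629% of all promoters. TATAAA was found in Sprr2f among the members, 29 bases before the start, at the same distance as in Sprr2d, and in 13.0% of all promoters. The NF-kB-like sequence GGGANNNNCC was found in Pigr alone among the 8, and in 17.3% of all promoters. The Sprr2f and Sprr2d windows shared 184 of 263 aligned positions, or 70%. These matches are letters in a window and say nothing of whether a factor binds there.

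Per kilobase of exon, Ltf was the most abundant member, with a mean of 5758 CPM per kb over the 6 lesions, followed by Lcn2 at 2936 and Sprr2f at 1628 CPM per kb. In every lesion Ltf was above Lcn2 and Lcn2 above Sprr2f, although the ranges of neighbours over lesions overlapped. Padi1 followed at 606 CPM per kb, below Sprr2f in every lesion. Pigr and Clu, at 271 and 267 CPM per kb, could not be ordered, since Pigr ran from 92.8 to 444 and Clu from 184 to 395. Slpi had a mean of 129 CPM per kb with a range from 5.40 to 655, which spans the range of Wfdc2, from 56.2 to 122. WT replicate 2 alone set this mean of Slpi. Greb1 had the lowest mean over the 6 lesions, at 16.0 CPM per kb, with a highest value of 20.8 that lay below the lowest of Wfdc2. In KO replicates 1 and 2, however, Slpi was lower still, and the KO means were 13.7 CPM per kb for Slpi and 18.4 for Greb1. Ltf alone took 0.968% to 3.34% of all counts of a library and ranked from 1 to 3 among all genes by CPM. Together the 9 members took 2.87%, 1.88% and 2.71% of counts in the WT lesions and 5.41%, 4.25% and 2.77% in the KO lesions.

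For each member the 3 KO lesions were set against the 3 WT lesions. Compared with WT, 6 members had a higher and 3 a lower mean in the KO lesions, and the groups overlapped for all 9. Among all genes tested, 48.6% had a log2 fold change below 0, 8.74% had every KO lesion below every WT lesion and 10.7% had every KO lesion above. In the 6 with the higher mean, Ltf, Lcn2, Pigr, Wfdc2, Greb1 and Padi1, KO replicates 1 and 2 lay above every WT lesion. KO replicate 3 lay within the WT range for all 9 members, and WT replicate 2 was lowest for 8, all but Slpi. The study's threshold, an unadjusted p under 0.05 with a log2 fold change above 1 or below -1, was passed by 1 member, Slpi, as lower. Of all genes tested, 5.85% passed it as lower and 3.10% as higher in KO, and 0.00550% had an adjusted p under 0.05 in either direction. The median log2 fold change of the members was 0.54, beside 0.01 over all genes tested. In whole lesions, fewer cells of a type and less RNA per cell cannot be told apart.

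**Figure D1:**
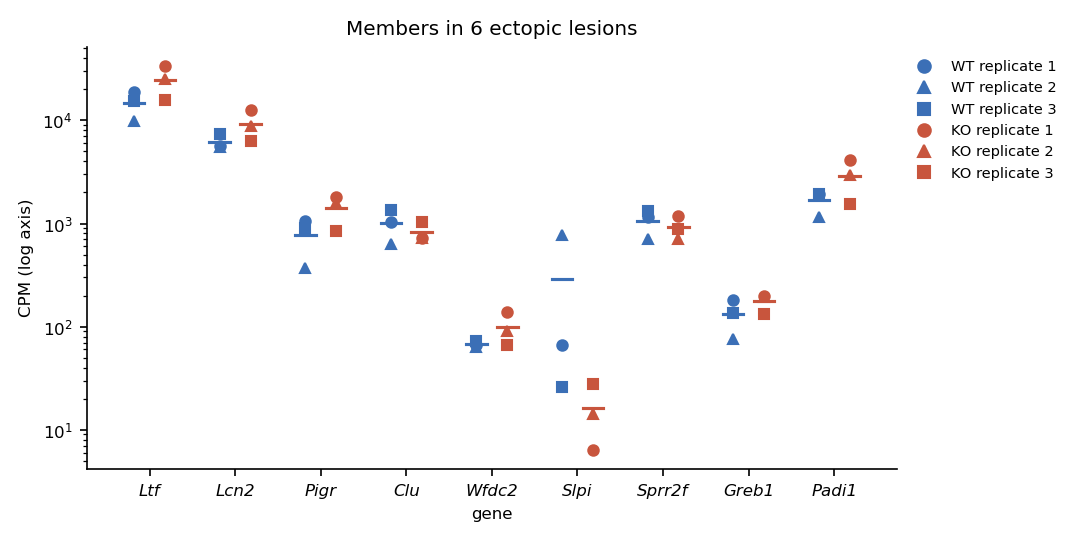
Level of each member in each lesion, in CPM on a log axis, with WT in blue and Dnmt3a KO in red, symbols for replicates 1 to 3 and a bar at the group mean. KO replicates 1 and 2 sit above all WT lesions for 6 members, and Slpi spans the widest range, from 6.37 to 773 CPM.

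Ltf encodes lactoferrin, an iron-binding secreted protein of uterine fluid that is also stored in neutrophil granules. The gene spans 111019271 to 111042767 of chromosome 9 in GRCm38. Replicates 1, 2 and 3 of WT held 19058, 9883 and 15526 CPM, and those of KO 33570, 25488 and 15673 CPM. KO replicate 3 was thus at the level of WT replicate 3, and the other KO lesions were above all WT lesions. The means were 14822 ± 4628 CPM in WT and 24910 ± 8963 CPM in KO (SD, n = 3 each), a log2 fold change of 0.75 ± 0.44 (SE).

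Lcn2 encodes lipocalin-2, which binds bacterial siderophores and is made by epithelia and by neutrophils. It lies on chromosome 2 from 32384633 to 32388252, on the minus strand. The WT lesions held 5630, 5541 and 7374 CPM and the KO lesions 12590, 8787 and 6285 CPM. Again KO replicates 1 and 2 were high and KO replicate 3 fell among the WT lesions. The means were 6182 ± 1033 and 9220 ± 3175 CPM (SD, n = 3 each), with a log2 fold change of 0.58 ± 0.35 (SE).

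Neutrophils and epithelium both can make Ltf and Lcn2, so the markers of each were set beside them. The mature neutrophil genes were summed over 11 members, and gave 567, 11199 and 251 CPM for WT against 101, 130 and 240 CPM for KO. WT replicate 2 had the highest sum and the lowest Ltf and Lcn2. S100a8, a calcium-binding protein abundant in neutrophils, was at 169, 3406 and 67.4 CPM for WT against 12.8, 2.74 and 49.0 CPM for KO. In KO replicate 2, which held the fewest S100a8 counts, 138, there were 1283103 counts of Ltf and 442349 of Lcn2. In WT replicate 2 there were 151308 counts of S100a8, 439026 of Ltf and 246143 of Lcn2.

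Granule genes are made by maturing neutrophils, in which Ltf is also transcribed, and their levels differed between genes and lesions. Ngp, a secondary granule protein, had 62, 1329 and 26 counts for WT against 2, 0 and 18 for KO. Camp, the cathelicidin precursor of the same granules, had 4, 76 and 4 counts in WT and 0, 4 and 4 in KO lesions. The 10 granule genes summed to 16.7, 198 and 11.8 CPM for WT against 9.82, 13.9 and 43.6 CPM for KO, and Mpo, the azurophil granule peroxidase, did not pass 1.35 CPM in any lesion. Mmp8, a granule collagenase, was at 139 CPM in WT replicate 2 and at 2.86 to 14.9 CPM in the others, and Prtn3, a granule protease, was at 4.82 to 25.3 CPM over all 6. Ltf exceeded the sum of all 10 in every lesion, the nearest being WT replicate 2.

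Epithelial genes were present in all 6 lesions. The 15 epithelial genes summed to 3070, 3061 and 4391 CPM for WT against 5378, 4818 and 2751 CPM for KO. Epcam, an epithelial adhesion protein, was at 240, 268 and 412 CPM for WT against 468, 420 and 211 CPM for KO. Krt8, a simple-epithelium keratin, was at 371, 287 and 472 CPM for WT against 618, 523 and 349 CPM for KO. For both, KO replicates 1 and 2 were above KO replicate 3, as for Ltf and Lcn2. Elf3 and Krt19, also of this list, had that order too, at 833, 636 and 398 CPM and at 545, 510 and 263 CPM in KO. Krt7 was at 452, 727 and 774 CPM for WT against 604, 421 and 413 CPM for KO. In all, 12 of the 15 had a log2 fold change above 0 and 3 below: Krt7 (-0.44), Krt19 (-0.02) and Cldn4. Of the 15 genes, 1 passed the study's threshold, Cldn4, a tight junction protein, which was lower in KO with a log2 fold change of -1.07, and 0 passed it with upper quartile scaling, without WT replicate 2 or 3 or without KO replicate 1 or 2. Without KO replicate 3, Ehf and Esrp1 passed as higher.

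**Figure D2:**
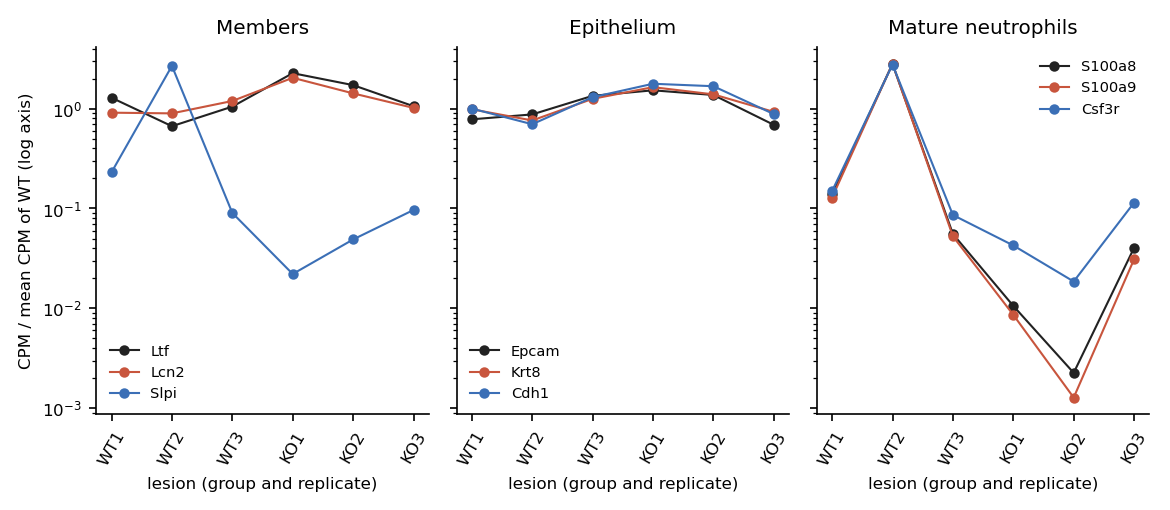
CPM of each gene divided by its mean CPM in WT, on a log axis, by lesion (WT1 to WT3 and KO1 to KO3 are the replicates of each group). Ltf and Lcn2 stay within a narrow range as Epcam, Krt8 and Cdh1 do, while Slpi and the mature neutrophil genes shown peak in WT replicate 2.

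The ratio of counts within a lesion does not depend on library size. Ltf counts per count of Krt8 ran from 32.9 to 54.4, a 1.65-fold range, and Lcn2 per Krt8 from 15.2 to 20.4, a 1.34-fold range. Per count of Cdh1, the epithelial cadherin, the range was 1.60-fold for Ltf and 1.51-fold for Lcn2, and per count of Epcam 2.16-fold and 1.66-fold. Ratios to the other epithelial genes were not taken, and such narrow ranges do not hold for all of them. From WT replicate 2 to KO replicate 2, Krt7 went from 32275 to 21208 counts, while Ltf went from 439026 to 1283103. Per count of Csf3r, the receptor for the neutrophil growth factor G-CSF, Ltf ran from 15.3 to 5886, a 384-fold range, and Lcn2 from 8.59 to 2029, a 236-fold range. Per count of S100a8 the range was 3204-fold for Ltf and 1970-fold for Lcn2. WT replicate 2 was lowest in these ratios, and without it the ranges were 10.8-fold and 12.6-fold per Csf3r and 82.4-fold and 96.1-fold per S100a8. Without KO replicate 2, the highest lesion, they were 220-fold and 147-fold per Csf3r and 901-fold and 603-fold per S100a8. Per count of Ly6g, another mature neutrophil gene, the range was 48.6-fold for Ltf and 32.5-fold for Lcn2. Without WT replicate 2 the ranges per Ly6g were only 2.90-fold and 2.40-fold. Ly6g itself had 34 counts in KO replicate 3 and 669 in WT replicate 2. Cells were not separated before sequencing, so the cell type that each Ltf or Lcn2 read came from was not measured.

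**Figure D3:**
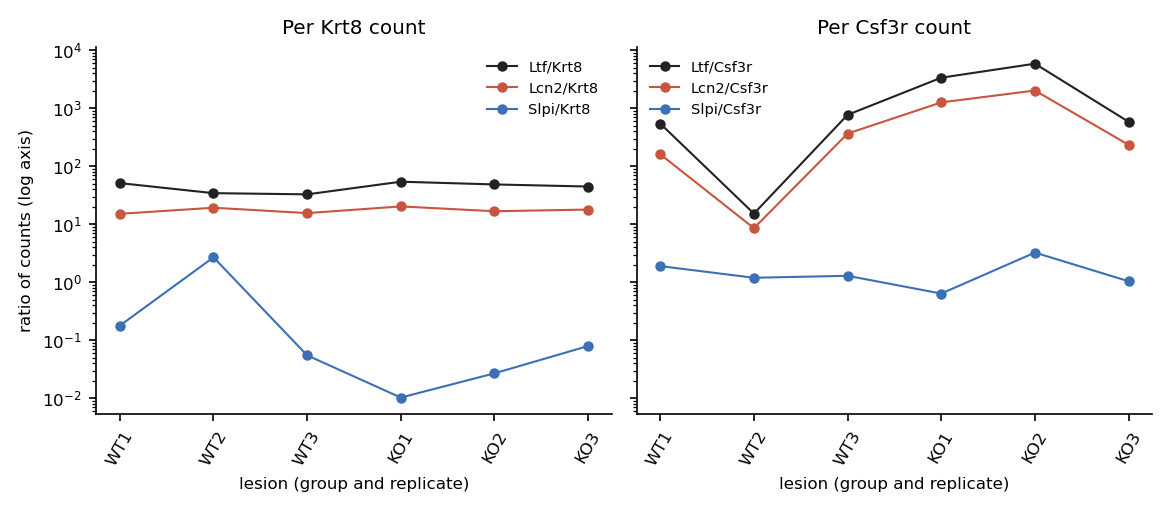
Counts of Ltf, Lcn2 and Slpi per count of Krt8 (left) and per count of Csf3r (right) in each lesion, on a log axis. Ltf and Lcn2 per Krt8 vary 1.65-fold and 1.34-fold over the 6 lesions, and Slpi per Csf3r varies 5.09-fold.

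Relative to the mean log2 CPM of the 15 epithelial genes in the same lesion, the KO and WT difference of Ltf was 0.44 on the log2 scale and that of Lcn2 was 0.24. The spread over the 6 lesions narrowed from 1.76 to 0.81 on the log2 scale for Ltf and from 1.18 to 0.44 for Lcn2. Relative to the mature neutrophil genes, it widened to 9.04 for Ltf and 8.34 for Lcn2. The epithelial index itself was 0.30 higher in KO than in WT on the log2 scale, and its part in the members' differences was not tested.

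Among 10348 other genes of at least 10 CPM, those whose centred log2 CPM over the 6 lesions was nearest to Ltf were Aktip, Ndufa11, Arhgap44, Smco4 and Elmo3. Their root mean square differences from Ltf were 0.06 to 0.11 on the log2 scale. Those near Lcn2 included Ass1, Mettl13, Gm5424 and the member Wfdc2, at 0.06 to 0.09. The 100 nearest genes of Ltf held 2 of the epithelial and 0 of the mature neutrophil genes, and so did the 100 nearest of Lcn2. All 15 epithelial and 10 of the 11 mature neutrophil genes were among the genes searched, whereas 1 of the 10 granule genes reached 10 CPM. With 6 points many genes lie equally near, and the lists describe these lesions only.

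Slpi, secretory leukocyte protease inhibitor, restrains neutrophil elastase. It lies on chromosome 2 from 164354070 to 164389095, on the minus strand, and its exons hold Mir7678 on the same strand. The WT lesions held 66.5, 773 and 26.0 CPM and the KO lesions 6.37, 14.1 and 27.9 CPM, so that a single lesion, WT replicate 2, set the WT mean of 289 ± 420 CPM against 16.1 ± 10.9 CPM in KO (SD, n = 3 each). The log2 fold change was -4.16 ± 1.43 (SE), and -1.52 without WT replicate 2.

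Slpi varied with other genes than Ltf and Lcn2 did. Per count of Csf3r it ran from 0.640 to 3.26, a 5.09-fold range, the narrowest among the neutrophil genes compared. The range was 9.71-fold per Ly6g, 22.7-fold per S100a8 and 40.3-fold per S100a9. Without KO replicate 2 the ranges were 2.98-fold per Csf3r, 2.51-fold per S100a8 and 3.28-fold per S100a9. Without WT replicate 2 they were 5.09-fold, 13.3-fold and 22.4-fold. Per count of Krt8 Slpi ran from 0.0103 to 2.70, a 262-fold range, which was 99.9-fold without KO replicate 1 and unchanged without KO replicate 2. Without WT replicate 2 it was 17.4-fold, between the ranges per S100a8 and S100a9 with the same lesion left out. The KO and WT difference of Slpi was -3.31 on the log2 scale relative to the epithelial genes and 0.28 relative to the mature neutrophil genes. Its 100 nearest genes held 2 mature neutrophil genes, 1 granule gene, 2 genes induced by cytokines in epithelium and 0 epithelial genes. The part of neutrophils or of inflammation in the Slpi difference was not tested.

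The neutrophil and cytokine lists moved with the same lesion. Of the 11 mature neutrophil genes tested, 6 were lower in KO past the study's threshold, with a median log2 fold change of -4.09. The count was 0 without WT replicate 2, without KO replicate 1 or without KO replicate 2, and 0 with DESeq2's Wald test. S100a9, the partner of S100a8, had a log2 fold change of -6.20 ± 2.08 (SE) (edgeR's quasi-likelihood test, Benjamini-Hochberg adjusted p = 0.328). Of 5 granule genes tested, 2 passed as lower, Ngp and Cd177, and 0 without WT replicate 2 or KO replicate 1 and 1 without KO replicate 2. Of 13 cytokine-induced genes tested, 8 were lower past the threshold, but 2 without WT replicate 2 or KO replicate 2 and 1 without KO replicate 1. Saa3, an acute phase protein, was at 574, 4651 and 265 CPM for WT against 33.5, 31.0 and 310 CPM for KO, and Il1b, an inflammatory cytokine, at 82.4, 2165 and 46.6 CPM for WT against 9.98, 1.55 and 47.2 CPM for KO. The 9 macrophage genes all had a log2 fold change below 0, with a median of -0.96, and 0 passed the threshold. Without KO replicate 3, 6 of the 9 passed as lower, and with DESeq2's Wald test 1 did.

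Pigr, the receptor that carries polymeric immunoglobulins across epithelium, was at 1054, 374 and 907 CPM for WT against 1789, 1572 and 847 CPM for KO. The gene lies on chromosome 1 from 130826684 to 130852249. It had the highest log2 fold change of the members, 0.85 ± 0.47 (SE), and its lowest lesion was again WT replicate 2. Relative to the epithelial genes the difference was 0.62. Of its cargo, Jchain, the joining chain of polymeric immunoglobulin, and Igha, the IgA heavy chain, were lower in KO past the threshold with log2 fold changes of -1.92 and -2.35 (edgeR, adjusted p = 0.328 and 0.332). Igha was at 163, 870 and 84.5 CPM for WT against 55.9, 66.1 and 97.0 CPM for KO, and neither gene passed without WT replicate 2 or when any single KO lesion was left out. Those were the 2 of 8 tested receptors, cargo and enzyme partners of the members that passed, and Tgm2, a transglutaminase, and Lrp1, a clearance receptor, did not. The log2 fold change of Lrp1 was -0.48, and -1.40 without KO replicate 3, where it passed.

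Padi1, an enzyme that turns arginine in proteins into citrulline, was at 1931, 1169 and 1954 CPM for WT against 4127, 2935 and 1531 CPM for KO. The gene lies on chromosome 4 from 140812983 to 140845778, on the minus strand. The log2 fold change was 0.77 ± 0.43 (SE). Of its 50-base stretches, 30.3% were shared with Gm13032, which overlaps it on the opposite strand, or with Padi3, and Gm13032 itself did not pass 2.33 CPM. The kit keeps strand but the strand setting of the counting is not given, so reads of the pair may not be told apart. The neighbouring family member Padi2 had the same order of lesions, at 1319, 799 and 1331 CPM for WT against 3270, 2222 and 999 CPM for KO. Its log2 fold change was 0.91, those of Padi3 and Padi4 were 0.69 and 0.39, and 0 of the 3 tested passed the threshold. Padi2 passed without KO replicate 3, at 1.26.

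Wfdc2 and Slpi both carry whey acidic protein domains, but their values went apart. Wfdc2, whose product is found in genital tract secretions, was at 66.7, 64.0 and 73.0 CPM for WT against 139, 90.7 and 66.2 CPM for KO. The gene lies on chromosome 2 from 164562413 to 164568510. Its WT lesions lay closest together of all members, and the log2 fold change was 0.54 ± 0.28 (SE). Lcn2 and Wfdc2 were the closest pair of members, with a root mean square difference of 0.09 on the log2 scale. Of the 6 other whey acidic protein genes tested, 2 were higher past the threshold, Wfdc12 and Wfdc18. Wfdc18 was at 228 CPM in KO replicate 2 and at most 6.44 CPM in the others, and its log2 fold change of 4.74 became 1.07 without that lesion. Wfdc18 did not pass when any WT lesion was left out, nor Wfdc12 without WT replicate 1 or 3 or KO replicate 2. As lower, Wfdc1 passed without WT replicate 2 or KO replicate 2 and with DESeq2's Wald test, and Wfdc17 without WT replicate 3.

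Greb1, an estrogen-induced cofactor of the estrogen receptor, was at 182, 76.6 and 135 CPM for WT against 199, 195 and 134 CPM for KO. The log2 fold change was 0.42 ± 0.34 (SE), and relative to the epithelial genes the difference was 0.19. Greb1 lies on chromosome 12 from 16670615 to 16800886, on the minus strand, and Gm48140, which overlaps it on the opposite strand, was at or near 0 in every lesion. Clu, a secreted chaperone on chromosome 14 from 65968483 to 65981547, was at 1023, 633 and 1359 CPM for WT against 730, 727 and 1038 CPM for KO, with a log2 fold change of -0.27 ± 0.33 (SE). Relative to the epithelial genes, Clu in KO replicates 1, 2 and 3 stood at -1.07, -0.89 and 0.40 from the WT mean on the log2 scale, against -0.31 to 0.18 in the WT lesions, so that KO replicate 3 was the highest lesion. The KO and WT difference on this scale was -0.52, and the spread over the 6 lesions widened from 1.10 to 1.46.

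Sprr2f encodes a small proline-rich protein of the kind that is cross-linked at epithelial surfaces. It was at 1160, 709 and 1320 CPM for WT against 1172, 710 and 876 CPM for KO, with means of 1063 ± 317 and 919 ± 234 CPM (SD, n = 3 each). The log2 fold change was -0.21 ± 0.32 (SE). The WT and KO lesions covered nearly the same range.

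The relatives of Sprr2f stand beside it on chromosome 3, from Sprr2a1 at 92215799 to Sprr2k at 92433925, with Sprr2f from 92365187 to 92366442. Of the 10 others, 7 were tested, and 6 of these were lower in KO past the study's threshold. Each of the 6 had every KO lesion below every WT lesion and an adjusted p of 0.321 (edgeR's quasi-likelihood test). Over all genes tested, 5.85% passed as lower and 8.74% had every KO lesion below every WT lesion. Sprr2d was at 330, 782 and 372 CPM for WT against 4.75, 1.33 and 47.1 CPM for KO, a log2 fold change of -4.80 ± 1.41 (SE). Sprr2b was at 185, 236 and 107 CPM for WT against 8.19, 4.91 and 28.1 CPM for KO, a log2 fold change of -3.68 ± 0.75 (SE). Sprr2a1, Sprr2a2, Sprr2a3 and Sprr2e had log2 fold changes of -1.69, -1.64, -1.96 and -1.28. All 6 passed without WT replicate 2 as well, and Sprr2g, at -0.20, did not pass. With the replicate number as a block 4 passed, and Sprr2a2 and Sprr2a3 did not. With DESeq2's Wald test, which called more genes in all, 6 of the relatives had an adjusted p under 0.05.

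Sequence shared between these genes limits some of the values. Of the 50-base stretches of Sprr2f, 0.714% were shared with another gene, and of those of Sprr2d 4.27%, while 96.3% of those of Sprr2a1 were shared, among others with Sprr2a2 and Sprr2a3, so the values of these 3 genes are uncertain. Whether the counts of Sprr2f and Sprr2d changed differently was not tested.

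**Figure D4:**
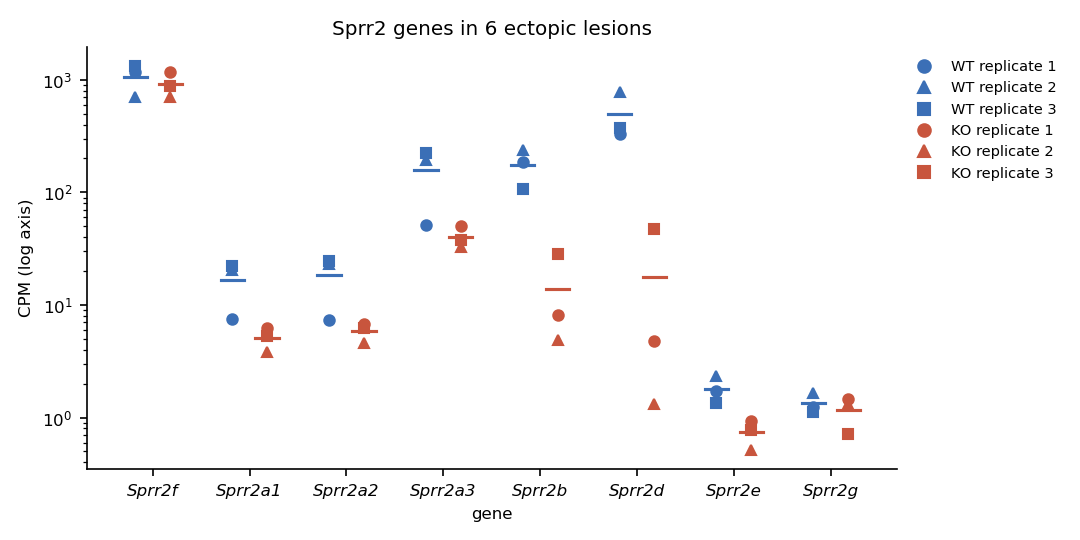
Level of Sprr2f and its tested relatives in each lesion, in CPM on a log axis, with WT in blue, Dnmt3a KO in red and a bar at the group mean. Sprr2f overlaps between the groups, whereas the KO lesions of Sprr2b and Sprr2d lie below all WT lesions.

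Of the estrogen receptors, Esr1, the receptor alpha, was at 191, 93.2 and 200 CPM for WT against 387, 445 and 226 CPM for KO. Its log2 fold change was 1.13 ± 0.39 (SE) (edgeR, adjusted p = 0.328), with all KO lesions above all WT lesions, and 0.85 without WT replicate 2. It did not pass there, nor without KO replicate 1 or KO replicate 2. Esr2, the receptor beta, was too low to test, with at most 0.208 CPM in 5 lesions and 3.22 CPM in KO replicate 2. Pgr, which estrogen induces and whose locus carries the Cre used here, was at 137, 135 and 227 CPM for WT against 255, 240 and 151 CPM for KO, with a log2 fold change of 0.37 ± 0.30 (SE).

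The 23 other genes that estrogen raises in the uterus did not move one way. Of these, 12 had a log2 fold change above 0 and 11 below, with a median of 0.03. C3, the complement component that estrogen induces in uterine epithelium, was the most abundant and followed the order of Ltf in KO lesions, at 10713, 9715 and 6666 CPM for WT against 23243, 19254 and 9358 CPM for KO. Its log2 fold change was 0.94 ± 0.44 (SE) and it did not pass. Muc1, a surface mucin, had 0.95 and Mmp7, an epithelial protease, -0.03. Without KO replicate 3, C3 and Muc1 both passed, at 1.24 and 1.22.

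Past the study's threshold, 3 of the 23 were higher and 5 lower in KO, each with an adjusted p of 0.321 to 0.328 (edgeR). Of these, Crabp2, Aqp5, Fos, Lif and Olfm1 were named after their values were seen. Clca1, a secreted regulator of chloride channels, was at 128, 236 and 58.8 CPM for WT against 2548, 1422 and 208 CPM for KO, a log2 fold change of 3.30. Crabp2, a retinoic acid carrier, was at 12.6, 5.54 and 10.4 CPM for WT against 100.3, 85.9 and 29.9 CPM for KO, a log2 fold change of 2.92. Aqp5, a water channel, had a log2 fold change of 2.35. For these 3, KO replicates 1 and 2 were again above KO replicate 3. The lower ones were Sprr2a1 and Sprr2b, given above, Fos (-1.19), an immediate early factor, Lif (-1.05), a cytokine of implantation, and Olfm1 (-1.04). Some of these calls were lost when a lesion was left out: Clca1 did not pass without WT replicate 1, Aqp5 without WT replicate 3 or KO replicate 1, Fos without WT replicate 2, Lif without WT replicate 3 or KO replicate 2, and Olfm1 without WT replicate 1, KO replicate 1 or KO replicate 2. With upper quartile scaling Lif and Olfm1 did not pass either. With DESeq2's Wald test, which called more genes in all, 7 of the 23 had an adjusted p under 0.05.

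**Figure D5:**
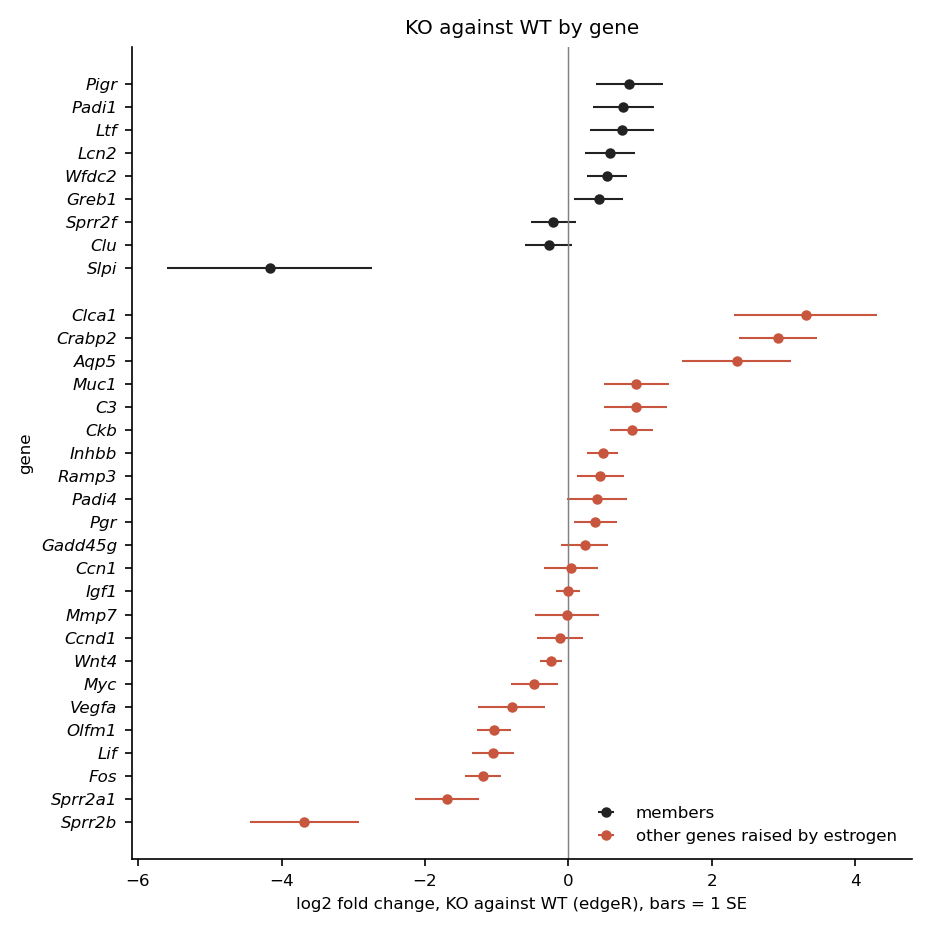
log2 fold change of KO against WT for the 9 members (black) and the 23 other genes that estrogen raises (red), with bars of 1 standard error. Members other than Slpi lie between -0.27 and 0.85, and the other genes run from -3.68 for Sprr2b to 3.30 for Clca1.

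Markers of uterine glands and stroma describe what else the lesions held. Of 8 gland genes, 4 were tested and 0 passed: Sox9, Pax8, Sox17 and Foxa2. Pax8 passed as higher without KO replicate 3, with upper quartile scaling, with a filter of 1 count and with DESeq2's Wald test. Foxa2, which defines glandular epithelium, was at most 2.62 CPM and at 0 in KO replicate 3, and Prss28, a gland protease, was at 0 in 5 of the 6 lesions. Of 7 stromal genes, 4 were higher in KO past the threshold, Esr1, Wnt5a, Hoxa11 and Hand2, with a median log2 fold change of 1.02 over the list. The count was 1 without KO replicate 1, 2 without WT replicate 1 or WT replicate 2 and 3 without KO replicate 2. Pdgfra, a growth factor receptor of stromal cells, was at 298, 408 and 321 CPM for WT against 142, 104 and 321 CPM for KO. Its log2 fold change was -0.86, and it passed as lower without KO replicate 3, at -1.48. The part of gland or stroma content in the members' values was not tested.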

How the data were processed

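RNA was sequenced from 3 WT and 3 Dnmt3a KO ectopic lesions with a stranded mRNA library kit. The authors trimmed reads, mapped them and counted reads per gene, and deposited whole-number raw counts of 56884 genes. The submitters' processing notes name Trimmomatic, featureCounts, DESeq2 and GRCm39, whereas the methods give GRCm38. The aligner and the strand setting of the counting are not given in the sources used here. Symbols came from a gene table that matched 51948 identifiers without their version, and lengths and coordinates from GENCODE M21 on GRCm38, which may not match the counted gene models exactly.

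Totals were 45370342 to 57239184 counts, which leaves counting error small for the members beside the spread between lesions. Counts come without molecular identifiers. Genes were kept by filterByExpr (18177), scaled by TMM and tested with edgeR 4.0.16 in R 4.3.3 (glmQLFit and glmQLFTest), with genotype as the only term and Benjamini-Hochberg adjustment over all genes tested. The SE of a fold change was taken from its F statistic. The study's threshold was an unadjusted p under 0.05 with a log2 fold change above 1 or below -1. The p-values measure the spread between these lesions. CPM used the TMM factors, and log2 CPM a prior count of 2. The members, the 20 context lists and the alternatives were chosen with earlier results of these data known. Named genes were the members, Dnmt3a, the estrogen and progesterone receptors, up to 4 genes of each list with the highest mean CPM, list genes past the threshold where a list had up to 5, 10 defining markers and the 5 genes nearest to Ltf and to Lcn2. One of these genes is not reported here. Sprr2a1, Sprr2e, Crabp2, Aqp5, Fos, Lif, Olfm1, Ehf and Esrp1 were named after their values were seen. Alternatives were DESeq2 1.42.0, other scalings and filters, the replicate number as a block, each lesion left out, and levels relative to epithelial or mature neutrophil genes. The fit was tested on simulated data.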

Additional observations from a re-analysis of the deposited data

How the results depend on the processing

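The count of members with a lower mean in KO was 3 under each of the 12 alternative fits. Over these fits the log2 fold change ran from 0.47 to 1.00 for Ltf, 0.29 to 0.79 for Lcn2, 0.52 to 1.13 for Pigr, 0.40 to 1.07 for Padi1, 0.21 to 0.76 for Wfdc2, 0.15 to 0.73 for Greb1, -0.52 to -0.01 for Clu, -0.43 to -0.05 for Sprr2f and -4.82 to -1.52 for Slpi, the last without WT replicate 2. Relative to the mature neutrophil genes Slpi turned to 0.28.

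Genes lower in KO past the study's threshold numbered 1064, and 1652 with a filter of 1 count, 1839 with DESeq2's Wald test, 573 with the replicate block and 551 to 1650 with each lesion left out, the extremes without KO replicates 1 and 3. Genes higher numbered 564, and 372 with the replicate block and 280 to 1021 with each lesion left out, the extremes without KO replicates 2 and 3. Genes with an adjusted p under 0.05 numbered 1, against 2674 with an unadjusted p under 0.05. They numbered 0 with DESeq2's size factors, upper quartile scaling or the replicate block, 1077 with DESeq2's Wald test and 0 to 398 with each lesion left out, the 398 without WT replicate 2. The labels share replicate numbers between the groups but do not say that they pair lesions, and the deviations of same-numbered lesions correlated at 0.03, -0.15 and -0.20, so the block shares only a number.

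With each lesion left out, the median log2 fold change of a list ran from -0.27 to 1.28 for the estrogen receptors, -0.0197 to 0.287 for other estrogen-induced genes, -0.0742 to 1.04 for whey acidic protein genes, -4.49 to -1.72 for cytokine-induced genes, -5.88 to -1.15 for mature neutrophil and -3.18 to -0.86 for granule genes, -2.74 to -0.38 for intestinal, -11.0 to 5.75 for pancreatic, -4.77 to 0.87 for liver and -0.85 to 0.99 for adipocyte genes. With a filter of 1 count and with DESeq2 it was 1.12 and 1.11 for the estrogen receptors and 1.17 and 1.18 for whey acidic protein genes, as more genes were tested, and 0.10 for intestinal genes with 10 counts in every library. Mmp7 turned to 0.0731 with upper quartile scaling and 0.0442 with the block, and ran from -0.30 to 0.43 with each lesion left out, as did Tgm2 from -0.19 to 0.24. The cause was not tested for these changes other than the number of genes tested. The 3 lesions per group limit the precision.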
